A study of Sus scrofa with 42 samples.

Results

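The 26S proteasome genes were followed through the first divisions of pig embryos made in vitro. The genes were chosen by symbol, PSMA to PSMG followed by a digit, and 35 of the 15351 genes in the expression table carried one. The series held 42 single cells of 20 embryos, which were either made by in vitro fertilization (IVF) of mature oocytes with fresh semen or parthenogenetically activated (PA) by electric pulses followed by 6-dimethylaminopurine and cytochalasin B, so that PA embryos carry maternal chromosomes alone. For each method, the 1-cell group held 3 cells of 3 embryos, the 2-cell group 6 blastomeres of 3 embryos, the 4-cell group 9 blastomeres of 3 embryos and the 8-cell group 3 blastomeres of 1 embryo. All oocytes were taken from gilt ovaries of a slaughterhouse and matured in vitro, and both kinds of embryo were cultured in the same medium. No breed or genotype was given. Blastomeres are named by embryo and number, for example PA 4-cell-1-3 is blastomere 3 of embryo 1.

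The proteasome breaks down proteins that carry ubiquitin chains. Its barrel, the 20S core, is a stack of rings of alpha subunits (PSMA genes), which gate the entrance, and of beta subunits (PSMB genes), of which PSMB5, PSMB6 and PSMB7 make the cutting sites. The 19S cap has a base with a ring of ATPases (PSMC genes) that unfold the substrate and a lid (most PSMD genes) that removes ubiquitin, and chaperones (PSMG genes, PSMD5, PSMD10), activators (PSME genes) and PSMF1, known as an inhibitor, act on them. In early embryos this system is known for clearing maternal proteins as control passes from the oocyte's stores to the embryo's own genome. In mammalian cells, proteasome genes are known to be raised together by the factor NFE2L1, at antioxidant response elements, when the proteasome is impaired.

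Of the 35 genes, 5 encode alpha-ring and 6 beta-ring subunits, 6 encode 19S ATPases and 9 encode other 19S subunits. PSMA8 is a testis-type alpha subunit and PSMB10 an immunoproteasome subunit. PSMC3IP, a factor of meiotic recombination, matches by name and is not a subunit, which leaves 34 genes of the proteasome. PSMB5, PSMB8, PSMB9, PSME1, PSMG1, PSMG2 and PSMG4 were not analysed here, and PSMA1, PSMA2, PSMD4, PSMD8, PSMD9 and PSME2, which the table lists without a symbol, were read as pathway genes by their gene ID. In all, 33 of the 35 genes passed the filter on low values, an FPKM (fragments scaled by gene length and by sequencing depth) of at least 1 in at least 3 cells, as did 8116 of all genes. PSMB10 was at most 0.653 FPKM in any cell, and PSMC6 was above 1 FPKM in 1 cell, IVF 8-cell-1-1, at 12.8 FPKM.

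The cells held oocyte transcripts. BTG4, a maternal mRNA decay adaptor, reached 1 FPKM in 42 of 42 cells, and BMP15 and ZP4 in 36 each. Of the other oocyte markers in the table, GDF9 did in 34 cells, ZP2 in 27, OOEP in 15, ZP3 in 10 and ZAR1 in 4. Of 6 cumulus and granulosa cell markers in the table, the defining TNFAIP6 reached 1 FPKM in 0 cells, CYP19A1 in 3 and HAS2 in 4, while VCAN did in 27 and STAR in 20. The summed level of these 6 was 3.71 to 19.3 FPKM in embryos up to the 4-cell stage, and 0.247 FPKM (IVF) and 4.21 FPKM (PA) in the 8-cell embryos. The sum of 8 oocyte markers was 509 to 1548 FPKM up to the 4-cell stage and 76.1 and 56.0 FPKM in the 8-cell embryos. Leukocyte markers PTPRC and CD3E reached 1 FPKM in 1 cell each, LYZ and CD79A in 0, and the 1 sperm marker in the table, AKAP4, in 2. The part of other cells in the results was not tested. PA 4-cell-1-4 and PA 4-cell-2-1 nearly repeated PA 2-cell-1-2 and PA 2-cell-2-1, with Pearson's r of log2 values of 0.999 in both pairs against at most 0.908 in the other 859 pairs of cells, so results that move without them are also given that way. Reads on the 9349 genes whose FPKM could be read as whole reads came to between 2916546 and 11281638 per cell.

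PSMB7 was the 1 gene of the family called from the 2- to the 4-cell stage, and its promoter is printed first. Beside it stands that of PSMD13, a lid gene called from the 1- to the 8-cell stage. Each is the 250 bases before the RefSeq gene start in Sscrofa11.1, 5′ to 3′ along the gene's strand, with GC boxes, CCAAT boxes and ETS-type sites on either strand in capitals.
PSMB7, chr1:265235390-265235639, strand -: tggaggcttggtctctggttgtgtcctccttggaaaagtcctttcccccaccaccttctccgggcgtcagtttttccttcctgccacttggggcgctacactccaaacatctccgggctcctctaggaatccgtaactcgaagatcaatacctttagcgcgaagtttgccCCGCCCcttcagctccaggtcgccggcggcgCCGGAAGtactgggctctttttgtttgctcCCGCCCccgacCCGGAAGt
PSMD13, chr2:54858-55107, strand +: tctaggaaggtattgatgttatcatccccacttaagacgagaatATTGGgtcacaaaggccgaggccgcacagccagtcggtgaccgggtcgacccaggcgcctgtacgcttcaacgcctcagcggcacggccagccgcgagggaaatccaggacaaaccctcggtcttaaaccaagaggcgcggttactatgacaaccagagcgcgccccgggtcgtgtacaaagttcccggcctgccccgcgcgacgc
PSMB7 held 2 GC boxes (GGGCGG) and 2 ETS-type sites (CCGGAAG), and PSMD13 held 1 CCAAT box. In capitals, CCGCCC is the GC box and ATTGG the CCAAT box read on the other strand. The deposited gene model of PSMB7 starts at base 265235480 of chromosome 1, inside the printed window, so the bases nearest to the RefSeq start lie within that model. PSMB7 (ENSSSCG00000005590) runs there from base 265172237 on the minus strand, and PSMD13 (ENSSSCG00000014559) lies on chromosome 2 from 55108 to 70961 on the plus strand.

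Over the promoters of the 35 genes, the ETS-type site occurred in 9 (25.7%), against 7.77% of the 19556 promoters of protein-coding genes. GC boxes occurred in 45.7% against 45.9%, CCAAT boxes in 34.3% against 31.9% and the TATA box (TATAAA) in 5.71% against 9.77%. The core of the antioxidant response element (TGACNNNGC) occurred in 2, PSMC5 and PSMD14, or 5.71% against 9.97%. All motifs were searched on both strands with overlapping matches counted. These are matches of letters in a short window, and none was tested for function. PSMD7 and PSMD11 held none of these motifs, and PSMF1 held 1 GC box and 1 ETS-type site. The window of PSMD7, from base 17047170, lies wholly inside its deposited gene model, which runs from 17046650 to 17056691 on the plus strand. So do those of PSMA4, PSMA5, PSMC3 and PSMD12, among others, inside theirs. The shares above thus describe windows before RefSeq starts, not always sequence upstream of the measured gene.

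Levels of the genes were uneven, even for subunits that sit side by side in 1 complex. Averaged over 20 embryos, PSMB7 was at 43.1 FPKM, PSMD1, a base scaffold, at 25.3 FPKM, PSMD12, a lid subunit, at 25.1 FPKM and PSMB2, a structural beta subunit, at 17.0 FPKM. At the other end, the base ATPases PSMC3 and PSMC6 were at 0.326 and 0.274 FPKM, and the lid subunit PSMD3 at 0.380 FPKM. The median over embryos of a gene of the family, 0.991 FPKM, lay close to that of all tested genes, 1.11 FPKM. PSMD12 and PSMD1 stood above 92.8% and 91.9% of tested genes by their median, and PSMB7 above 51.5% only, since it was high in late embryos and near 0 in most early ones. The heat map by embryo shows these rows.

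**Figure D1:**
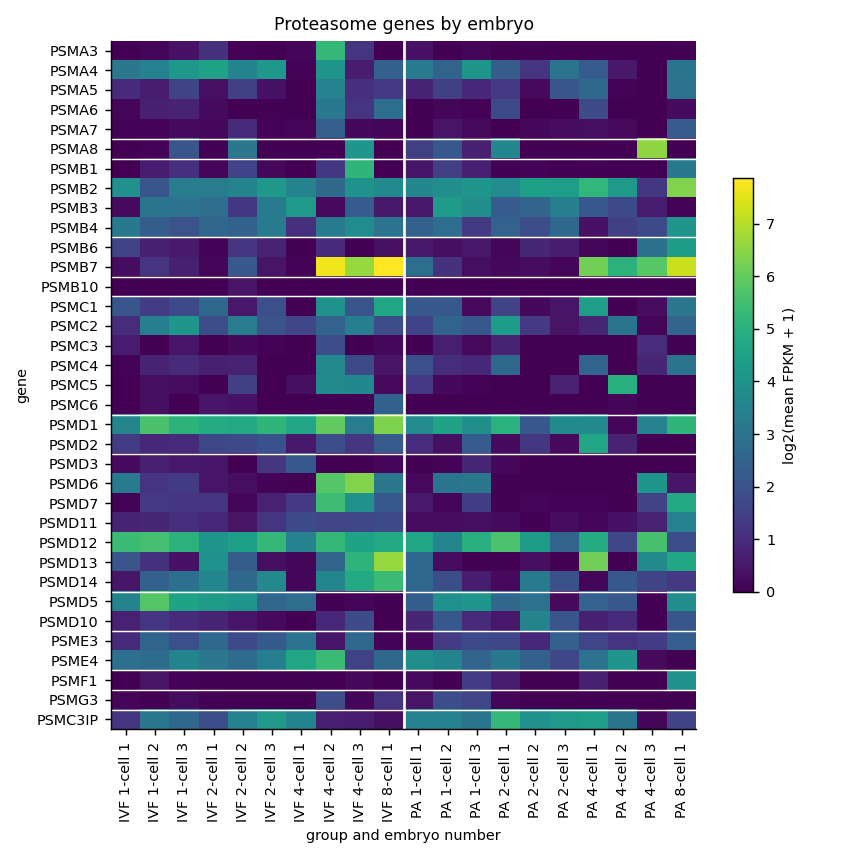
Heat map of the 35 genes (rows, grouped by role from alpha ring to chaperones, with PSMC3IP last) in 20 embryos (columns, IVF left and PA right of the thick line). Colour is log2(mean FPKM + 1) over an embryo's blastomeres. PSMB7 is dark at the 1- and 2-cell stages and bright at 4- and 8-cell in all embryos except IVF 4-cell embryo 1, whereas PSMD1, PSMD12 and PSMB2 are bright in most columns.

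PSMB7 encodes the beta subunit with trypsin-like activity. In IVF 1-cell embryos it was at 0.189, 1.25 and 0.607 FPKM, and in IVF 2-cell embryos at 0.0704, 3.50 and 0.324 FPKM. In IVF 4-cell embryos it was at 0.0557, 206 and 100.3 FPKM, and at 232 FPKM in the IVF 8-cell embryo. Thus 2 of 3 IVF 4-cell embryos and the 8-cell embryo stood above every earlier embryo, and embryo 1 stayed at the early level. In PA 1-cell embryos PSMB7 was at 6.11, 1.24 and 0.212 FPKM, and in PA 2-cell embryos at 0.115, 0.197 and 0.0841 FPKM. In PA 4-cell embryos it was at 72.2, 32.2 and 55.5 FPKM, and at 149.6 FPKM in the PA 8-cell embryo. No PA embryo of the 4- or 8-cell stage overlapped with an earlier one.

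From the 2- to the 4-cell stage, with both methods averaged, PSMB7 rose by 4.72 on the log2(FPKM + 1) scale (SE 0.93, n = 6 embryos against 6, adjusted p = 0.00832, limma with Benjamini-Hochberg adjustment over all tested genes). A gene is called here at an adjusted p below 0.05 with at least a 2-fold change. PSMB7 was the 1 gene of 33 called in this step, where 4.14% of the 8116 tested genes were called in either direction and 1.79% were called higher. At an unadjusted p under 0.05 there were 7 (background 20.7%). Within each method alone it was not called: the log2 difference was 3.92 (SE 1.32) in IVF, adjusted p = 0.130, and 5.51 (SE 1.32) in PA, adjusted p = 0.0750, both in limma. With 1 embryo left out at a time, the rise was 4.00 to 5.90, with adjusted p of at most 0.0335 in limma. The largest rise and the lowest adjusted p, 4.5e-06 in limma, came without IVF 4-cell embryo 1. That embryo is the one that stayed at the early level, so leaving it out adds no support. Without the near-repeating blastomeres PA 4-cell-1-4 and 2-1 it was 4.95, adjusted p = 0.00246 in limma, and PSMB7 was then called in PA too. The call was lost when PA 4-cell-1-3 was left out, with a log2 difference of 3.73 and adjusted p = 0.0800 in limma, which left embryo 1 with the near-repeating PA 4-cell-1-4 alone. It was also lost when only the groups compared entered the fit, where limma gave an adjusted p of 0.0800.

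Blastomeres of 1 embryo differed widely in PSMB7. In IVF 4-cell embryo 2 it was at 399 FPKM in blastomere 2 and 13.6 FPKM in blastomere 3, and in embryo 3 at 237, 91.0, 0.158 and 73.4 FPKM in blastomeres 1 to 4. In IVF 4-cell embryo 1 all 3 blastomeres were below 0.1 FPKM, with 1, 1 and 2 reads. PA 4-cell embryo 2 held 0.480, 13.8, 1.20 and 113 FPKM in its 4 blastomeres. Embryo 3 of that group held 137, 29.9 and 0.0514 FPKM, and embryo 1 held 144 and 0.186 FPKM. So each PA 4-cell embryo had blastomeres at the early level next to blastomeres far above it, and the low ones of embryos 1 and 2 include both near-repeating cells. All 6 blastomeres of the 8-cell stage were high, with 331, 132 and 234 FPKM for IVF, then 249, 76.6 and 123 FPKM for PA, each with at least 1565 reads. The plot of PSMB7 by cell shows both the split within 4-cell embryos and its absence at the 8-cell stage.

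**Figure D2:**
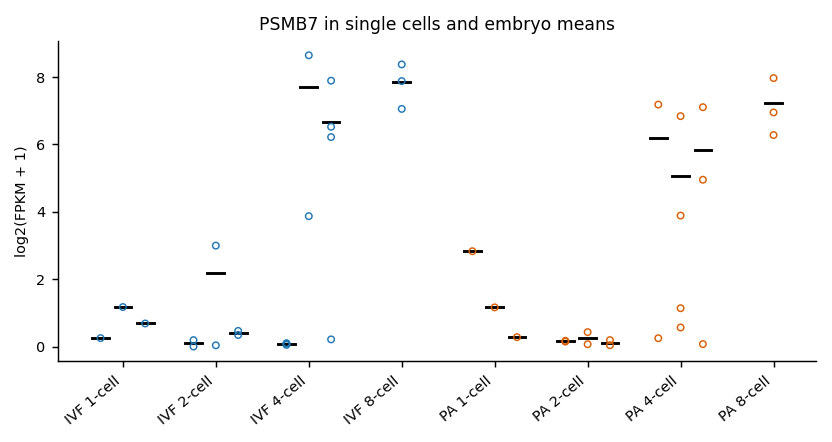
PSMB7 as log2(FPKM + 1) (y axis) in each cell (open circles) by group (x axis), with a black bar at the mean FPKM of each embryo. The 1- and 2-cell embryos lie at or below 6.11 FPKM, the 4-cell blastomeres span from near 0 to 399 FPKM, and the 6 blastomeres of the 8-cell stage lie at 76.6 FPKM and above.

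PSMB7 also set much of the summed level of the family. Its share of the summed FPKM of the 34 proteasome genes was 0.0437 to 5.39% in 1- and 2-cell embryos. In 4- and 8-cell embryos it was 21.9 to 40.9%, except in IVF 4-cell embryo 1, where it was 0.0504%. The 34 genes together took 0.0744 to 0.180% of the nuclear FPKM in 1- and 2-cell embryos. In IVF 4-cell embryos they took 0.115, 0.460 and 0.373%, in PA 4-cell embryos 0.316, 0.123 and 0.312%, and in the 8-cell embryos 0.408% (IVF) and 0.348% (PA). Without PA 4-cell-1-4 and 2-1 the PA 4-cell shares were 0.536, 0.132 and 0.312%. IVF 4-cell embryo 1 and PA 4-cell embryo 2 thus stayed within the range of earlier embryos. With all cells and without PSMB7 the highest 4-cell value was 0.302% instead of 0.460%, still above every 1- and 2-cell embryo. The share of FPKM from mitochondrial genes moved with stage as well, at 6.07 to 34.9% in 1- and 2-cell and 21.3 to 60.6% in 4- and 8-cell embryos, and its part in these sums was not tested.

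The other beta subunits were not called from the 2- to the 4-cell stage. PSMB6, the caspase-like subunit, was at 0 to 2.08 FPKM in IVF embryos, with 0.279 FPKM at the 8-cell stage. PSMB2 was at 3.24 to 17.4 FPKM in IVF embryos and 1.40 to 36.3 FPKM in PA embryos up to the 4-cell stage, and at 82.4 FPKM in the PA 8-cell embryo. Most of that came from PA 8-cell-1-2, at 196 FPKM, beside 51.4 and 0.111 FPKM in its sisters. PSMB4 was at 0.313 to 16.1 FPKM over all embryos, highest in the PA 8-cell embryo. PSMB6 was also highest there, at 19.5 FPKM, in the embryo that held PSMB7 at 149.6 FPKM. PSMB3 went from 17.8 FPKM in IVF 4-cell embryo 1, where PSMB7 was near 0, to 0.160 FPKM in embryo 2, and the 2 genes had the lowest Spearman correlation of any pair of the family over 20 embryos, -0.62. Without the 4 near-repeating cells that correlation was -0.39. PSMB1 was highest in IVF 4-cell-3-4, at 138 FPKM, and at most 2.61 FPKM in the other 4-cell blastomeres, while the PA 8-cell embryo held 8.01 FPKM. PSMB10 was above 0 in 2 cells.

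Among PSMA3 to PSMA8, the alpha subunits listed by symbol, no gene was called in any comparison. PSMA4 was at 7.74, 10.3 and 17.2 FPKM in IVF 1-cell and 21.9, 10.7 and 17.5 FPKM in IVF 2-cell embryos, against 0.0592, 15.7 and 0.555 FPKM in IVF 4-cell embryos. In PA it was at 3.98, 1.30 and 7.23 FPKM at the 2-cell and 3.86, 0.448 and 0.0220 FPKM at the 4-cell stage. The 4-cell embryos overlapped with the 2-cell embryos in both methods, with a log2 difference of -1.87 (SE 0.66) and adjusted p = 0.113 in limma. Without the near-repeating PA 4-cell blastomeres it was called lower, along with PSMD5, a chaperone of the 19S base, and PSMC3IP. With their PA 2-cell partners left out too, these 3 were not called. The shares of all genes called in these refits are not given here. PSMA3 was at 36.8 FPKM in IVF 4-cell embryo 2 and at most 1.31 FPKM elsewhere. PSMA8 reached 93.5 FPKM in PA 4-cell embryo 3, from 145 and 135 FPKM in 2 blastomeres and 0.0603 FPKM in the other. PSMA5 and PSMA6 stayed at or below 10.2 FPKM in every embryo. PSMA7 reached 4.26 FPKM in IVF 4-cell embryo 2 and 3.88 FPKM in the PA 8-cell embryo, each from 1 blastomere, and was below 1 FPKM in the other embryos.

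No 19S ATPase passed the test in any comparison. PSMC2 was at 0.0977 to 18.9 FPKM per embryo, and PSMC1 at 0.0129 to 24.1 FPKM. PSMC5 was high in IVF 4-cell embryos 2 and 3, at 12.7 and 11.4 FPKM, and in PA 4-cell embryo 2, at 30.0 FPKM, where PA 4-cell-2-4 alone held 120.1 FPKM. In the other embryos it was at most 1.79 FPKM. PSMC4 was highest at 12.0 FPKM in IVF 4-cell embryo 2. The genes of PSMC1, PSMC3, PSMC5 and PSMC6 overlap a gene on the other strand (NRDE2, SLC39A13, FTSJ3 and ERO1A), and without stated strand their reads cannot be told apart. The same holds for PSMA7, PSMB3, PSMB4, PSMB10, PSMC3IP, PSMD1, PSMD6 and PSMD10, but for none of the 6 genes called in any comparison.

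**Figure D3:**
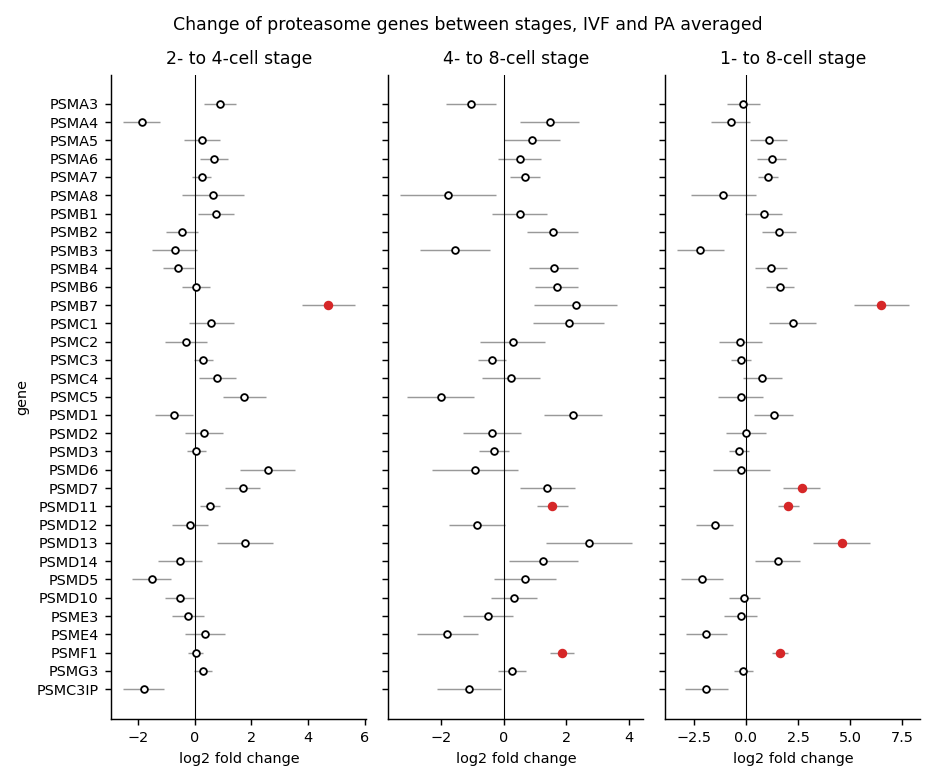
Log2 fold change (x axis, log2(FPKM + 1) scale) of the 33 tested genes (y axis, by role) from 2- to 4-cell, 4- to 8-cell and 1- to 8-cell stages, IVF and PA averaged, with bars for 1 SE. Red points are called (adjusted p below 0.05 and at least 2-fold): PSMB7 in the first, PSMD11 and PSMF1 in the second, and PSMB7, PSMD7, PSMD11, PSMD13 and PSMF1 in the third panel.

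Over the steps between stages, most of the family did not pass the test. From the 1- to the 2-cell stage 0 of 33 genes were called in IVF (background 0%), with 0 at an unadjusted p under 0.05 (background 2.66%). In PA 0 were called (background 0.0986%), with 1 at an unadjusted p under 0.05 (background 4.85%), the assembly chaperone PSMG3. With both averaged 0 were called (background 0%), and PSMG3 alone was again at an unadjusted p under 0.05 (background 4.65%). From 2- to 4-cell 0 were called in IVF (background 1.11%), with 6 at an unadjusted p under 0.05 (background 17.6%), and 0 in PA (background 0.394%), with 2 (background 10.8%). All these counts come from limma. Without IVF 4-cell embryo 1, PSMA3, PSMB7, PSMD6 and PSMD7 were called higher and PSMD5 lower in IVF. The share of all genes called without that embryo is not given here, so these calls have no background beside them. The median log2 difference of the 33 genes from 2- to 4-cell, both methods averaged, was 0.25, against -0.24 over all tested genes, and 21 were higher and 12 lower. Scaling by median ratios moved that median of all genes to 0.31, and the one from 1- to 8-cell from -0.63 to 0.02, while PSMB7 was called higher under both scalings.

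From the 4- to the 8-cell stage, 4 genes were called in PA, all higher: PSMB6, PSMD7, PSMD11 and PSMF1. They are 12.1% of the 33, against a background of 9.99% of all genes called in either direction and 6.81% called higher. At an unadjusted p under 0.05 there were 8 (background 20.7%). In IVF 0 were called (background 6.97%), with 0 at an unadjusted p under 0.05 in limma (background 19.4%). The median log2 difference was 1.38 in PA against -0.15 over all genes, and -0.47 in IVF against -0.38. Both 8-cell groups are 1 embryo, whose spread is taken from the other groups. Scaling by median ratios raised the PA count to 12, all higher. The share of all genes called under that scaling is not given here, so the 12 have no background beside them.

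Each of these calls leaned on 1 or 2 blastomeres of the PA 8-cell embryo. Those of PSMB6 and PSMD7 were also lost without PA 4-cell embryo 1 or embryo 2. With 1 PA 4-cell embryo left out, the log2 differences were 2.87 to 4.30 for PSMB6 and 3.92 to 4.68 for PSMD7. Both calls were lost without PA 4-cell-3-4 too, and that of PSMB6 without PA 4-cell-3-1. PSMF1, whose product binds the 20S core, was at 0.611, 0 and 0.00386 FPKM in PA 4-cell embryos and 15.1 FPKM in the PA 8-cell embryo, a log2 difference of 3.78 (SE 0.54, adjusted p = 0.000177, limma). In its blastomeres it was at 0.383, 0 and 44.9 FPKM, so that 1 cell, PA 8-cell-1-4, carried nearly all of it, with 5666 reads. Of all cells PA 8-cell-1-4 had the lowest share of tested genes above 0, 39.0% against 64.2 and 62.1% in its sisters. At 1 FPKM or more its share was 26.1% against 17.4 and 20.9%. Without that cell the log2 difference was 0.02, with adjusted p = 1 in limma. The other groups were at most 1.65 FPKM per embryo.

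PSMD7, the lid subunit that pairs with the deubiquitinase PSMD14, was at 0.0587, 0.0324 and 1.94 FPKM in PA 4-cell embryos and 25.7 FPKM in the PA 8-cell embryo (log2 difference 4.18, SE 1.24, adjusted p = 0.0372, limma). Its PA 8-cell blastomeres held 76.2, 0.0131 and 0.921 FPKM. Without PA 8-cell-1-1 the difference was -0.01 and not called. In IVF the gene was higher earlier, at 1.48, 41.95 and 15.3 FPKM in the 4-cell embryos, which lay above the 2-cell embryos (1.31, 0.0753 and 0.656 FPKM) without overlap but were not called (log2 difference 2.91, SE 0.88, adjusted p = 0.0976, limma).

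PSMD11, a lid scaffold, was at 0.0879, 0.311 and 0.655 FPKM in PA 4-cell embryos and 10.0 FPKM in the PA 8-cell embryo (log2 difference 3.05, SE 0.70, adjusted p = 0.00812, limma). Its PA 8-cell blastomeres held 2.55, 27.5 and 0 FPKM, and without PA 8-cell-1-2 the log2 difference was 0.77 and not called. In IVF the 4-cell embryos held 2.58, 2.11 and 2.17 FPKM and the 8-cell embryo 2.40 FPKM, above every earlier IVF embryo. PSMB6 was at 0.0709, 0.0106 and 6.30 FPKM in PA 4-cell embryos and 19.5 FPKM in the PA 8-cell embryo (log2 difference 3.36, SE 0.97, adjusted p = 0.0312, limma). Its blastomeres held 17.0, 40.5 and 0.841 FPKM, and without PA 8-cell-1-2 the difference was 2.32 and not called. The 3 PA 8-cell blastomeres thus differed in which of these genes they held, with PSMD7 in the first, PSMD11 in the second, PSMF1 in the last and PSMB6 in the first and second.

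**Figure D4:**
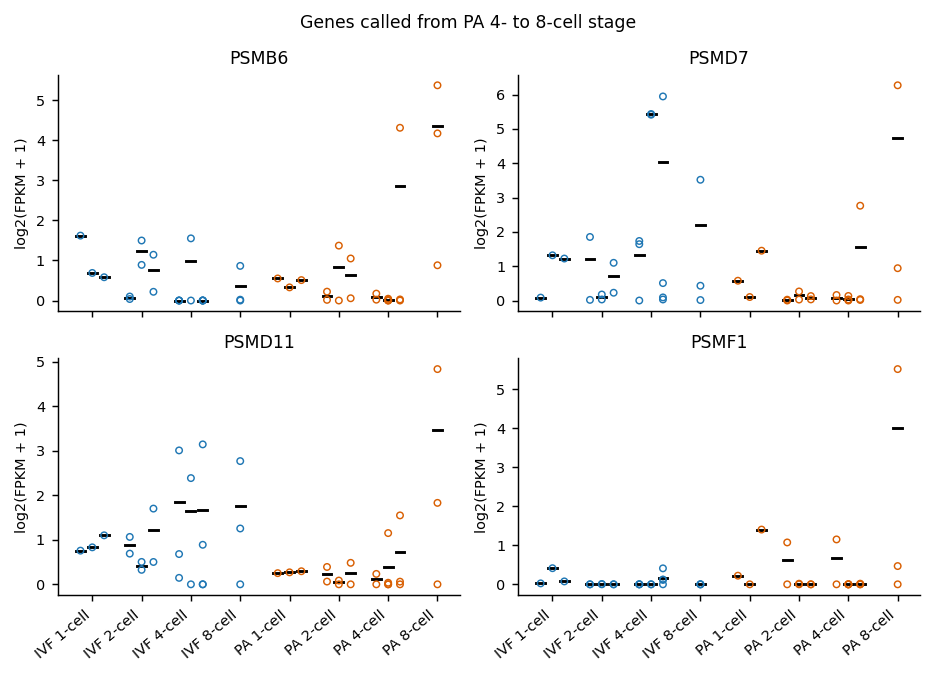
The 4 genes called from PA 4- to 8-cell stage, as log2(FPKM + 1) (y axis) in each cell (open circles) by group (x axis), with a black bar at the mean FPKM of each embryo. In the PA 8-cell column 1 circle stands far above the others for PSMD7, PSMD11 and PSMF1, and 2 circles do for PSMB6.

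With both methods averaged, PSMD11 and PSMF1 were called higher from the 4- to the 8-cell stage (background 12.6%, of which 7.27% higher), by 1.55 (SE 0.50, adjusted p = 0.0469) and 1.86 (SE 0.38, adjusted p = 0.00254) on the log2 scale in limma. At an unadjusted p under 0.05 there were 4 (background 24.4%). The call of PSMD11 was lost in 23 of 40 alternatives, with log2 differences of 0.41 to 2.97 over the 40, and without PA 8-cell-1-2 it was 0.41 (adjusted p = 0.643, limma). PSMF1 was at 0 in the IVF 8-cell embryo, and its log2 difference without PA 8-cell-1-4 was -0.02. From the 1- to the 8-cell stage 5 genes were called higher and 0 lower, 15.2% against a background of 25.5% in either direction and 10.2% higher, and 8 were at an unadjusted p under 0.05 (background 38.3%). They were PSMB7 (log2 difference 6.49, SE 1.32, adjusted p = 0.00134), PSMD13, PSMD7, PSMD11 and PSMF1, in limma. PSMD7 (2.68) lost the call in 6 of 22 alternatives, among them those without IVF 1-cell embryo 1 (adjusted p = 0.0562), PA 1-cell embryo 2 (adjusted p = 0.0567) or PA 8-cell-1-1 (0.59, adjusted p = 0.632), and PSMD11 (2.03) lost it in 2, among them that without PA 8-cell-1-2 (0.89, adjusted p = 0.165), all in limma. For PSMF1 the difference of 1.65 was -0.23 without PA 8-cell-1-4. For PSMB7 the call held without any 1 of the 6 blastomeres of the 8-cell stage, with differences of 6.20 to 6.64.

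PSMD13, a lid subunit, resembled PSMB7 in part. It was at 3.22, 1.15 and 0.305 FPKM in IVF 1-cell, 15.2, 4.03 and 0.232 FPKM in IVF 2-cell and 0.0731, 4.78 and 34.0 FPKM in IVF 4-cell embryos, and at 99.4 FPKM in the IVF 8-cell embryo. In PA it was at 5.39, 0.188 and 0.0266 FPKM in 1-cell, 0.0221, 0.262 and 0.0201 FPKM in 2-cell and 70.6, 0.0276 and 12.3 FPKM in 4-cell embryos, and at 24.8 FPKM in the PA 8-cell embryo. The 4-cell embryos spread over the whole range, and the 8-cell embryos lay above every 1-cell embryo (log2 difference 4.58, SE 1.37, adjusted p = 0.0190, limma). Among IVF 4-cell blastomeres it was at 9.37 FPKM in 2-2, 25.9 FPKM in 3-3 and 109.6 FPKM in 3-4, among PA ones at 141 FPKM in 1-3 and 36.8 FPKM in 3-3, and at most 0.413 FPKM in the rest. The IVF 8-cell blastomeres held 0.624, 182 and 116 FPKM and the PA ones 0.225, 0.0572 and 74.3 FPKM. Without PA 8-cell-1-4, which also held PSMF1, the difference was 2.33 and not called (adjusted p = 0.217, limma).

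Of the other lid and base genes, some were high in single late embryos and others at most stages. PSMD6 was at 54.4 and 82.3 FPKM in IVF 4-cell embryos 2 and 3 and 0.0230 FPKM in embryo 1, the larger value coming from IVF 4-cell-3-1 at 328 FPKM. PSMD14, the lid deubiquitinase, ranged from 0.0818 to 40.3 FPKM, highest in the IVF 8-cell embryo. PSMD2, a base scaffold, was at 24.6 FPKM in PA 4-cell embryo 1 and at most 3.85 FPKM elsewhere. PSMD12 was high at most stages, at 10.2 to 44.3 FPKM in the IVF embryos, and at 2.19 FPKM (PA 4-cell embryo 2) to 49.1 FPKM (PA 2-cell embryo 1) in the PA embryos. PSMD1 was at 9.15 to 80.4 FPKM in the IVF embryos and 0.108 to 34.5 FPKM in the PA embryos, highest at the 8-cell stage in both. Each of these 8-cell values came from 1 blastomere, IVF 8-cell-1-1 at 235 FPKM and PA 8-cell-1-1 at 103 FPKM. Their sisters held at most 5.62 FPKM. None of these genes was called. PSMD5 was at 10.6, 53.5 and 22.8 FPKM in IVF 1-cell, 19.1, 16.4 and 5.04 FPKM in IVF 2-cell and 6.07, 0.0424 and 0.0931 FPKM in IVF 4-cell embryos, with 0.0294 FPKM in the IVF 8-cell and 13.6 FPKM in the PA 8-cell embryo. Its log2 difference from 2- to 4-cell in IVF was -2.68 (SE 0.99), adjusted p = 0.164 in limma. PSMC3IP, the name match, was at 37.1, 14.9 and 17.7 FPKM in PA 2-cell and 19.8, 7.25 and 0.0705 FPKM in PA 4-cell embryos. PSMD10, the other base chaperone, reached 10.5 FPKM in PA 2-cell embryo 2. Among activators, PSME4 ranged from 0.0100 to 40.03 FPKM and PSME3 from 0.0647 to 7.004 FPKM.

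IVF and PA embryos were compared at each stage with 3 embryos a group. At the 1-cell stage 0 of 33 genes were called (background 0.0493%), with 1 at an unadjusted p under 0.05 (background 4.09%), PSMG3, with 0.327, 2.66 and 2.10 FPKM in PA embryos and 0.0718, 0 and 0.192 FPKM in IVF embryos. At the 2-cell stage 0 were called (background 0%), with 0 at an unadjusted p under 0.05 (background 5.43%). At the 4-cell stage 0 were called (background 0.554%), with 5 at an unadjusted p under 0.05, all higher in IVF (background 14%). These were PSMA3, PSMB1, PSMD1, PSMD7 and PSMD11. PSMD11 did not overlap between methods at the 4-cell stage, 2.11 to 2.58 FPKM in IVF against 0.0879 to 0.655 FPKM in PA (log2 difference 1.30, SE 0.50, adjusted p = 0.234, limma). Without IVF 4-cell embryo 1, PSMA3, PSMB1, PSMD6 and PSMD7 were called higher in IVF, and without the near-repeating PA cells PSMD1 was. The shares of all genes called in these refits are not given here. With the 3 stages together 0 were called (background 0.037%), with 3 at an unadjusted p under 0.05 in limma (background 14.6%). At the 8-cell stage, with 1 embryo each, PSMD13 was at 99.4 FPKM in IVF and 24.8 in PA, PSMD14 at 40.3 and 1.47, PSMB2 at 12.5 and 82.4, and PSMD5 at 0.0294 and 13.6. Several of these means came from 1 blastomere. PSMD14 in IVF was at 1.67, 119 and 0.0263 FPKM by blastomere, and PSMB2 in IVF at 0, 37.4 and 0.0274 FPKM. In PA, PSMD5 was at 40.9, 0.0169 and 0 FPKM and PSMD13 at 0.225, 0.0572 and 74.3 FPKM. A difference between methods was not tested at this stage.

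The step from 4- to 8-cell differed between methods for 1 gene of 33, PSMF1, with an interaction of -3.83 on the log2 scale (IVF minus PA, SE 0.77, adjusted p = 0.0117, limma) and a background of 2.86% in either direction and 1.97% downward. It was -0.08 without PA 8-cell-1-4. With it, 6 genes were at an unadjusted p under 0.05 (background 14.5%), all with a smaller or negative step in IVF. For the step from 2- to 4-cell 0 were called (background 0%), with 0 at an unadjusted p under 0.05 in limma (background 5.35%). PSMB7 was thus not shown to differ between IVF and PA in either step.

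Sister blastomeres of 1 embryo often differed in which genes of the family they held. A gene was counted where it reached 5 FPKM in 1 blastomere, and as low in a sister where another blastomere of that embryo was below 1 FPKM. In IVF 2-cell embryos 9 of 36 such cases were low in a sister (25.0% against 20.7% over all tested genes), and in PA 2-cell embryos 16 of 28 (57.1% against 37.0%). In 4-cell embryos it was 39 of 52 in IVF (75.0% against 73.9%) and 29 of 32 in PA (90.6% against 80.3%). In the 8-cell embryos it was 14 of 16 in IVF (87.5% against 76.7%) and 18 of 20 in PA, against 79.6% over all tested genes. Without the 4 near-repeating cells the PA shares were 6 of 9 at the 2-cell stage (41.7% over all tested genes), from 1 embryo, and 15 of 16 at the 4-cell stage (82.6% over all tested genes), from 2 embryos. The shares of the family thus lay near those of all genes in IVF 2- and 4-cell embryos. They lay some way above them in the PA groups and in the IVF 8-cell embryo, and the difference was not tested. It was not seen in every PA embryo, as PA 2-cell embryo 1 was at 36.4% against 34.8% over all tested genes. Embryos with more blastomeres sampled give more sisters in which a gene can be low, and a transcript that is absent and one that was missed in amplifying a single cell cannot be told apart here.

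**Figure D5:**
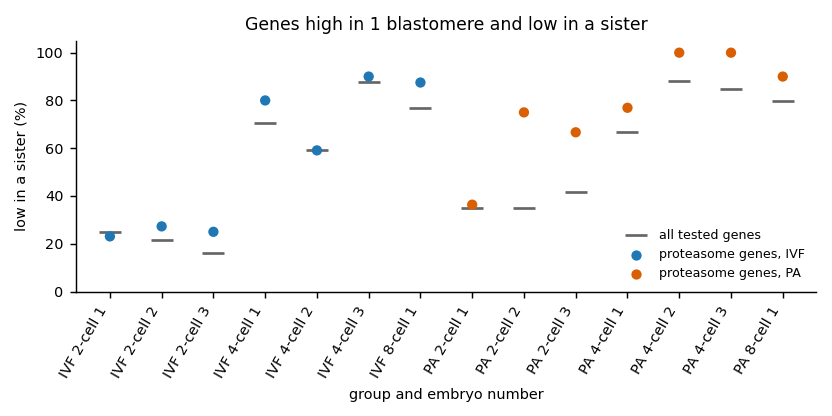
Percent of genes at 5 FPKM or more in 1 blastomere that were below 1 FPKM in a sister (y axis), by embryo (x axis), for the proteasome genes (points) and all tested genes (grey bars). Points lie at 23.1 to 27.3% in IVF 2-cell embryos, at 36.4 to 75.0% in PA 2-cell embryos, and at 59.1 to 100% in 4- and 8-cell embryos.

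The number of proteasome genes a cell held at 1 FPKM or more went from a median of 17 of 34 in IVF 1-cell to 15 in 2-cell, 11 in 4-cell and 12 in 8-cell cells. In PA the medians were 15, 9.5, 6 and 10. In IVF 2-, 4- and 8-cell cells these are 44.1, 32.4 and 35.3% of the family, against 54.9, 34.3 and 23.1% of all tested genes. In PA the 4 shares were 44.1, 27.9, 17.6 and 29.4% against 57.6, 39.3, 20.6 and 20.9%. The family's 34 genes include PSMB10 and PSMC6, which did not pass the filter that all tested genes passed. Over the 32 that did, the shares were 53.1, 46.9, 34.4 and 34.4% in IVF and 46.9, 29.7, 18.8 and 31.2% in PA. By these medians the family lay below all genes at the 1- and 2-cell stages and above them at the 8-cell stage in both methods, a difference that was not tested. In IVF 1-cell cells the median over all tested genes was 69.0%. The range over IVF 4-cell blastomeres was wide, from 2 to 24 genes.

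The genes of the family did not move as a block. Over the 496 pairs of the tested proteasome genes, the median Spearman correlation across 20 embryos was 0.12, against 0.084 over all pairs of tested genes, and 6.05% of pairs were above 0.5, against 6.73%. The highest pair was PSMD7 with PSMD11, at 0.73. The genes most like the summed 20S core were NSUN5, an RNA methyltransferase (0.89), RPS15, a ribosomal protein (0.86), 2 genes without a symbol (0.85 and 0.84) and SGK1, a kinase (0.83). PSMB7 is part of that sum and made up most of it in the IVF 8-cell embryo, at 232 FPKM. There the beta-ring genes, PSMB7 included, summed to 252.7 FPKM and the alpha-ring genes to 12.0 FPKM. In the PA 8-cell embryo these sums were 275.6 and 18.3 FPKM, with PSMB7 at 249, 76.6 and 123 FPKM in its blastomeres. Of the FPKM of all 34 genes, PSMB7 held 40.9% (IVF) and 33.3% (PA) in these embryos. The likeness to the core without PSMB7 was not tested. Without the 4 near-repeating cells the median over the family was 0.15 and PSMD7 with PSMD11 was at 0.68. These are descriptions over embryos that share stage and depth.

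Around the proteasome, 29 further genes were tested. They are genes of ubiquitin supply, shuttling, assembly and regulation, the subunits read by gene ID, such as PSMA1 and PSMA2, and PSME3IP1, a match by name. From 2- to 4-cell with both methods averaged 0 of 29 rose and 3 fell, 3 of 29 against a background of 4.14% of all genes: NFE2L2, a stress factor (-2.78, SE 0.61, adjusted p = 0.0150), NGLY1, the deglycosylase that activates NFE2L1 (-2.64, SE 0.56, adjusted p = 0.0121) and ZFAND5, a proteasome-binding protein (-1.94, SE 0.49, adjusted p = 0.0319), as log2 differences in limma. From 4- to 8-cell 2 rose and 2 fell (background 12.6%). The alpha subunit PSMA2, read by gene ID, rose by 2.55 (SE 0.81, adjusted p = 0.0432) and RPS27A, a ubiquitin precursor, by 3.09 (SE 0.99, adjusted p = 0.0463), while UBB, another ubiquitin gene, fell by 2.41 (SE 0.67, adjusted p = 0.0205), all in limma. The fourth was PSME3IP1, which matches by name and is not a subunit, and which fell by 2.30. POMP, the maturation protein of the 20S core, was at 0, 0.0162 and 0.299 FPKM in IVF 4-cell and 6.33 FPKM in the IVF 8-cell embryo, and at 0.268, 9.02 and 2.05 FPKM in PA 4-cell and 0.0431 FPKM in the PA 8-cell embryo. The step of POMP differed between methods by 4.44 (log2, SE 1.09, adjusted p = 0.0327, limma), 1 of 29 against a background of 2.86%. It rested on few cells: PA 4-cell-2-2 held 36.1 FPKM and PA 4-cell-3-4 held 6.14 FPKM, with 0 FPKM in their sisters. IVF 8-cell-1-3 held 16.9 FPKM, beside 0 and 2.05 FPKM in its sisters. How the calls of the 29 genes hold without single embryos or blastomeres was not tested. NFE2L1 itself was at 0 to 2.24 FPKM per embryo and not called. From 1- to 8-cell 4 rose (PSMA2, RPS27A, UBE3A and UFD1) and 2 fell (NGLY1 and PSME3IP1), against a background of 25.5%. At the 4-cell stage 1 differed between methods (background 0.554%), UBQLN1, a ubiquitin shuttle, higher in IVF by 4.04 (SE 0.90, adjusted p = 0.0464, limma).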

How the data were processed

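Single cells of pig embryos were measured by RNA-seq. By the paper's methods the authors amplified cDNA of each cell, mapped reads to Sscrofa11.1 with Hisat2, and deposited FPKM of 15351 genes in 42 cells. Versions, strandedness and molecular identifiers are not given in the sources used here. The extraction protocol in the labels names Trizol and bulk library kits instead, so which procedure made these cells' libraries is uncertain. Blastomeres were averaged (mean FPKM) within an embryo. Genes were tested on log2(FPKM + 1) with limma 3.58.1 in R 4.3.3 with a mean-variance trend, all 8 groups in 1 fit, and adjusted by Benjamini-Hochberg over 8116 genes. Fold changes on this scale understate those of low genes. Reads were recovered as whole multiples of a gene's smallest unit, within 0.002 read, for 9349 genes (63.6% of genes above 0), 34 of the 35 proteasome genes among them. Amplified reads do not count molecules, so precision comes from the spread between embryos. Embryos are replicates, and nothing says that they came from separate collections, so p-values cover the spread between these embryos. Named genes are those called in any comparison, and the others are given by role. The family and the gene lists were chosen with earlier results of these data known. The test was also run on simulated embryo values with independent normal noise at the fitted spread. That run shares the assumptions of the model, so it cannot show that the p-values hold for these data. Other pseudocounts, filters, scalings, averages and left-out embryos or blastomeres were tried. Promoters are from RefSeq (Sscrofa11.1), in which all 35 genes were matched. Pictures were drawn with matplotlib 3.10.9 in Python 3.11.15.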

Additional observations from a re-analysis of the deposited data

Results flagged for a closer look

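The step of PSMF1 from the 4- to the 8-cell stage differed between methods, with an interaction of -3.83 (log2, IVF minus PA, SE 0.77, adjusted p = 0.0117, limma). Each 8-cell group is 1 embryo. The value was -0.08 without PA 8-cell-1-4, which held 44.9 FPKM of PSMF1, and -6.68 to -1.86 under the other alternatives.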

How the results depend on the processing

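The counts of called genes were 4 for PA 4- to 8-cell, 1, 2 and 5 for both methods 2- to 4-, 4- to 8- and 1- to 8-cell, 1 for the difference between methods in the 4- to 8-cell step, and 0 in the other comparisons. Of 532 recomputed counts 457 stayed within 1.5 times, and of 382 recomputed fold changes of called genes 310 kept their call, 69 lost it and 3 changed sign. The 457 include counts of 0 that stayed at 0. For both methods 4- to 8-cell, 13 of 24 counts moved when 1 blastomere was left out. The rise of PSMB7 from 1- to 8-cell was called in all 22 alternatives, and that from 2- to 4-cell in 50 of 52. With a pseudocount of 0.1 the counts were 1 for PA 4- to 8-cell, 0 for both 4- to 8-cell, 3 for both 1- to 8-cell and 0 for the difference, and with 5 they were 0, 3 and 4 for the last 3 of these. Without a filter they were 1 for IVF 4- to 8-cell and 3 for the difference. With nuclear genes rescaled to 1 total they were 1 for PA 2- to 4-cell, 2 for PA 4- to 8-cell and 1 for both 4- to 8-cell. Median-ratio scaling gave 3 for IVF 4- to 8-cell, 1 for PA 2- to 4-cell, 12 for PA 4- to 8-cell, 11 for both 4- to 8-cell, 15 for both 1- to 8-cell and 8 for the difference (1 up and 7 down). The mean of log2 values gave 2 for IVF 2- to 4-cell, 2 for PA 4- to 8-cell, 4 for both 2- to 4-cell, 1 for both 4- to 8-cell and 0 for the difference. Fitting only the groups compared gave 0 for PA 4- to 8-cell, 0 for both 2- to 4-cell, 1 for both 4- to 8-cell, 12 for both 1- to 8-cell (9 up and 3 down) and 0 for the difference. Without PA 4-cell-1-4 and 2-1 they were 2 for PA 2- to 4-cell, 4 for both 2- to 4-cell, 1 for both 4- to 8-cell and 1 for IVF over PA 4-cell. Leaving out their PA 2-cell partners too, chosen after seeing the data, gave 1 for PA 2- to 4-cell and 1 for both 4- to 8-cell. Except where fewer samples enter by construction, the cause was not tested. Shares of all genes called are given for the main fit only, so the counts here and below have no background beside them.

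Leaving out 1 embryo, or 1 blastomere (chosen after seeing the data), gave 0 to 5 calls for IVF 2- to 4-cell, 0 to 1 for PA 2- to 4-cell, 0 to 4 for both 2- to 4-cell, 2 to 6 for PA 4- to 8-cell, 1 to 3 for both 4- to 8-cell, 4 to 6 for both 1- to 8-cell, 0 to 4 for IVF over PA 4-cell, 0 to 1 for the stages together and 0 to 3 for the difference. Log2 fold changes that changed sign this way were PSMD7 in PA 4- to 8-cell, -0.0087 to 4.75, and PSMF1 in both 4- to 8-cell, -0.017 to 2.14, and both 1- to 8-cell, -0.23 to 1.92.

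A replicate block on embryo number gave 1 instead of 2 for both methods 4- to 8-cell, 4 instead of 5 for both 1- to 8-cell and 5 instead of 4 for PA 4- to 8-cell, and the other counts were equal. Over all groups 4 of 45 same-numbered pairs of embryos had a correlation of deviations over 0.1 (median 0.0083). All 3 pairs of PA 2- with PA 4-cell embryos were among them (0.355, 0.282 and 0.10), where the block left the count at 0. Without PA 4-cell-1-4 and 2-1 these were -0.013, 0.0086 and -0.0056. The other groups shared only a number. With 1 embryo in each 8-cell group, the spread there is assumed to be that of the other groups.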
